A study of Rattus norvegicus with 6 samples.

Results

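The genes described here encode metalloproteases that work at the cell surface or in the extracellular matrix, and proteins that restrain them. They are the matrix metalloproteases (MMPs), the ADAM and ADAMTS families with the ADAMTS-like proteins, the procollagen C-proteinase Bmp1, the neprilysin-type peptidases Mme, Ece1 and Ece2, and the inhibitors Timp1 to Timp4 and Reck. Members were chosen by gene symbol alone, from probe sets to which the platform annotation gives exactly 1 symbol. This gave 86 probe sets of 60 genes, out of 31099 probe sets on the array and 14217 genes named in the same way.

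The cells were UMR106-01, a rat osteosarcoma line that keeps many traits of osteoblasts, the cells that deposit bone matrix. Cells were plated at 100000 per cm2 with 10% fetal bovine serum. At 64 h the medium of every culture was replaced by one with beta-glycerol phosphate at 6.5 mM, which supplies phosphate for mineral. In 3 cultures, called mineralizing here, nothing else was added. The other 3 also received 400 µM AEBSF, an inhibitor of serine proteases. Total RNA from each culture was collected at 76 h, 12 h after the change of medium, and hybridised to 1 Affymetrix rat array. The data hold a single tumour line, a single dose and a single time, and every culture had the phosphate donor.

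Metalloproteases hold a zinc ion in the active site, unlike the serine proteases that AEBSF blocks. MMPs and ADAMTS enzymes cut collagens, fibronectin and proteoglycans, whereas most active ADAMs release the outer part of membrane proteins, a step called shedding. Many are made as inactive precursors, some of which the serine-type convertase furin activates. TIMPs bind the active site, and Reck is a membrane-anchored glycoprotein that restrains several MMPs and Adam10. Bone cells need these enzymes to remodel collagen: loss of MMP14, for example, causes severe skeletal defects in mice and humans.

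The arrays were alike in overall level. Signals are MAS5 values on a linear scale, and the mean signal trimmed by 2% at either end was 500.15 or 500.16 on every array. Osteoblast markers were present: 8 of 11 lay above the signal filter of 67.2 and 1 (Bglap) lay below it. No values were used for Runx2 and Sp7. The filter is the 40th percentile of the mean log2 signal over all probe sets, given here on the linear scale. Of measured markers of other cells, 1 of 6 for macrophages or osteoclasts (Csf1r) and 1 of 5 for chondrocytes (Acan) lay above the filter. For adipocytes the count was 1 of 5 (Lpl), and for endothelium 0 of 4. These lists named 8, 7, 5 and 5 genes, and no values were used for the rest. Because every array is scaled to the same level, less RNA per cell and fewer cells cannot be told apart, and each difference is relative to the rest of that array. In limma, 16.3% of the 9864 tested genes passed an adjusted p of 0.05.

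Of the 60 genes, 33 had a mean log2 signal over all 6 arrays above the filter and were tested, and 27 lay below it. The filter uses both groups together and is not a detection call. Each gene is represented by its brightest probe set. In the 27 genes below the filter, single signals ran from 1.52 to 97.5 with a median of 31, and in 9 of them at least 1 of the 6 values reached above 67.2. All 5 measured membrane-type MMPs, Mmp14, Mmp15, Mmp16, Mmp17 and Mmp24, lay above the filter, against 3 of the 12 other MMPs, namely Mmp11, Mmp13 and Mmp23. Below it were the gelatinases Mmp2 and Mmp9, which cut denatured collagen, and Mmp3, Mmp7, Mmp8, Mmp10, Mmp12, Mmp19 and Mmp28. Of 18 ADAM genes, 9 were tested. Those below the filter were Adam2, Adam3a, Adam4, Adam6, Adam7, Adam11, Adam18, Adam32 and Adam33, several of which are known for roles in sperm. Of 12 ADAMTS genes, 6 were tested, and the aggrecanase Adamts4 lay below the filter with Adamts6, Adamts8, Adamts15, Adamts16 and Adamts19. Timp3 and Timp4 lay below it, as did Adamtsl2. Mmp2, often the most abundant gelatinase of mesenchymal cells, had signals of 80.6, 55.3 and 78 in the mineralizing and 54.1, 31.3 and 40.5 in the AEBSF cultures. The groups did not overlap in this probe set, but they did in a dimmer one (log2 difference -0.16). Neither was tested. Of the 27 genes below the filter, 5 had groups apart by their brightest probe set: Mmp2 and Adam3a lower with AEBSF, and Adamtsl2, Mmp12 and Adam32 higher. The like share over all genes below the filter was not counted, so the 5 are not a result about these genes. Among all tested genes, 19.1% lay apart below and 17% apart above. Timp3, just outside the filter, had 60.4, 57.9 and 97.5 against 61.8, 83.4 and 38.4. Ece2, just inside it, had 43.4, 76.1 and 94.6 against 75.5, 94.7 and 65.5, so Timp3 and Ece2 varied widely between cultures.

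**Figure D1:**
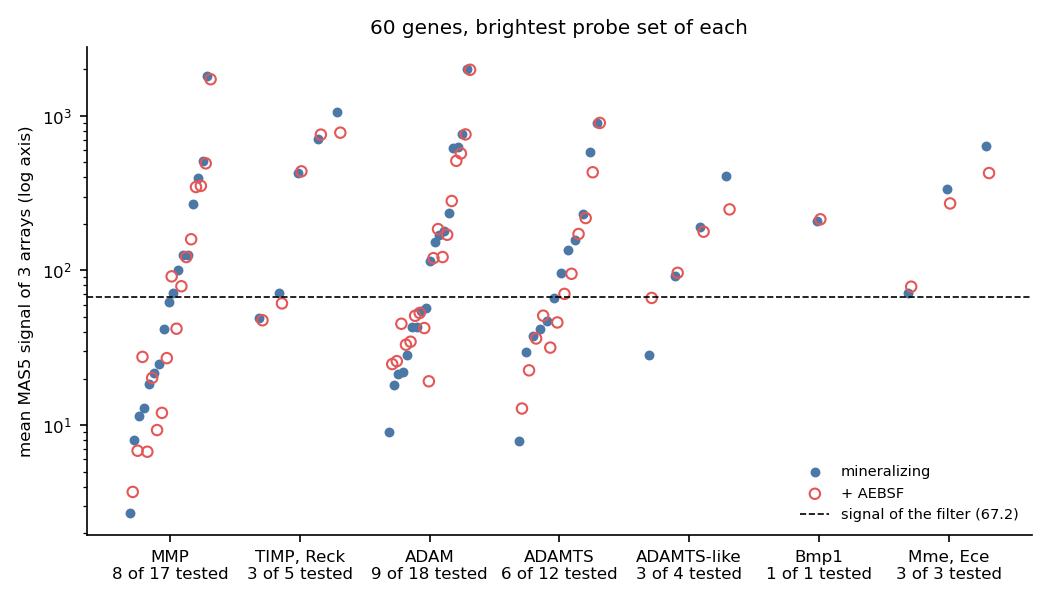
Mean MAS5 signal of 3 mineralizing (filled) and 3 AEBSF arrays (open) for the brightest probe set of each of 60 genes, by family, on a log axis; points of a gene lie side by side. The dashed line marks a signal of 67.2, and 33 genes had a mean log2 signal over all arrays above it.

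With AEBSF, 4 of the 33 tested genes fell and 0 rose. They were Adamtsl1, an ADAMTS-like matrix glycoprotein without a protease domain, the cell-surface peptidase Mme, the inhibitor Reck and the secreted protease Adamts10. In probe sets, 4 of 44 tested fell and 0 rose, beside 7.41% and 5.99% of all 18625. The share of genes, 12.1%, lay near the 9.22% of all 9864 tested genes that fell in limma; 7.09% of all tested genes rose. At an unadjusted limma p of 0.05, 7 members were lower and 1, Mmp11, was higher, where 16.6% and 15.3% of all tested genes were. The median log2 difference (AEBSF minus mineralizing) of the 33 genes was -0.043, against 0.002 over all tested genes, and 21 of the 33 values lay below 0. In 8 genes (24.2%) every AEBSF value lay below every mineralizing value, and in 2 (6.06%) above, where 19.1% and 17% of all tested genes did so. The shares called lower lay near those of the array and are not a result about these genes as a group; the shares higher were below those of the array, a difference that was not tested.

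**Figure D2:**
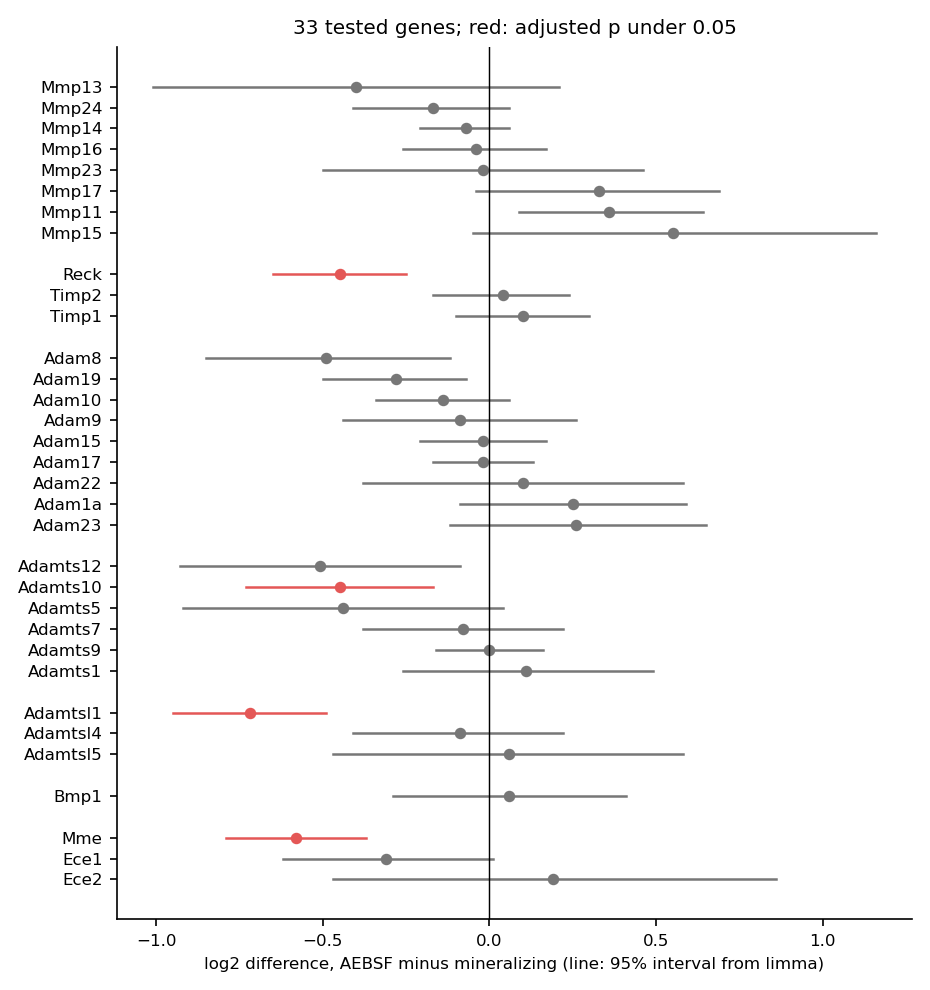
Log2 difference in signal, AEBSF minus mineralizing, with its 95% interval from limma, for the 33 tested genes in 7 families (from top: MMPs, inhibitors, ADAMs, ADAMTS, ADAMTS-like, Bmp1, neprilysin-type). The 4 genes in red passed an adjusted p of 0.05, all of them to the left of 0, and the MMPs lie on both sides of 0.

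Adamtsl1 had the largest called difference among the members. Its signals were 418, 393 and 411 in the mineralizing cultures and 251, 233 and 260 with AEBSF. The groups were far apart relative to their spread, 407 ± 13.1 against 248 ± 13.5 (SD, n = 3 cultures each). The gene fell 1.64-fold (log2 difference -0.72, SE 0.11, limma adjusted p = 0.00154), and the call held under all 17 alternative settings, with adjusted p from 0.000147 to 0.0147.

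Mme encodes neprilysin, a membrane peptidase that degrades small signalling peptides and is present on osteoblasts. It had 666, 659 and 583 in the mineralizing cultures and 433, 388 and 457 with AEBSF, so the lowest mineralizing culture stood above the highest AEBSF culture. It fell 1.49-fold, from 636 ± 45.9 to 426 ± 35.0 (log2 difference -0.58, SE 0.10, limma adjusted p = 0.00305), and passed under all 17 settings, with adjusted p from 0.000215 to 0.0281.

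Reck had 1006, 1064 and 1101 in the mineralizing cultures and 856, 676 and 799 with AEBSF. Here too the groups did not overlap, although the AEBSF cultures were less alike. The fall was 1.37-fold, from 1057 ± 48.0 to 777 ± 92.2 (log2 difference -0.45, SE 0.09, limma adjusted p = 0.00786). It passed in 16 of 17 settings and missed with a constant variance prior (adjusted p = 0.0614).

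Adamts10, an enzyme that associates with fibrillin microfibrils and is mutated in Weill-Marchesani syndrome, was the least firm of the 4. It had 597, 551 and 590 in the mineralizing cultures and 402, 531 and 360 with AEBSF; the second AEBSF culture lay close to the mineralizing ones. It fell 1.36-fold (log2 difference -0.45, SE 0.13, limma adjusted p = 0.0399). It did not pass when any 1 of the 3 mineralizing cultures was left out (adjusted p = 0.121, 0.0769 and 0.104), nor when AEBSF culture 1 or 3 was (0.11 and 0.106), and a second Adamts10 probe set had a log2 difference of 0.05 (adjusted p = 0.908).

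**Figure D3:**
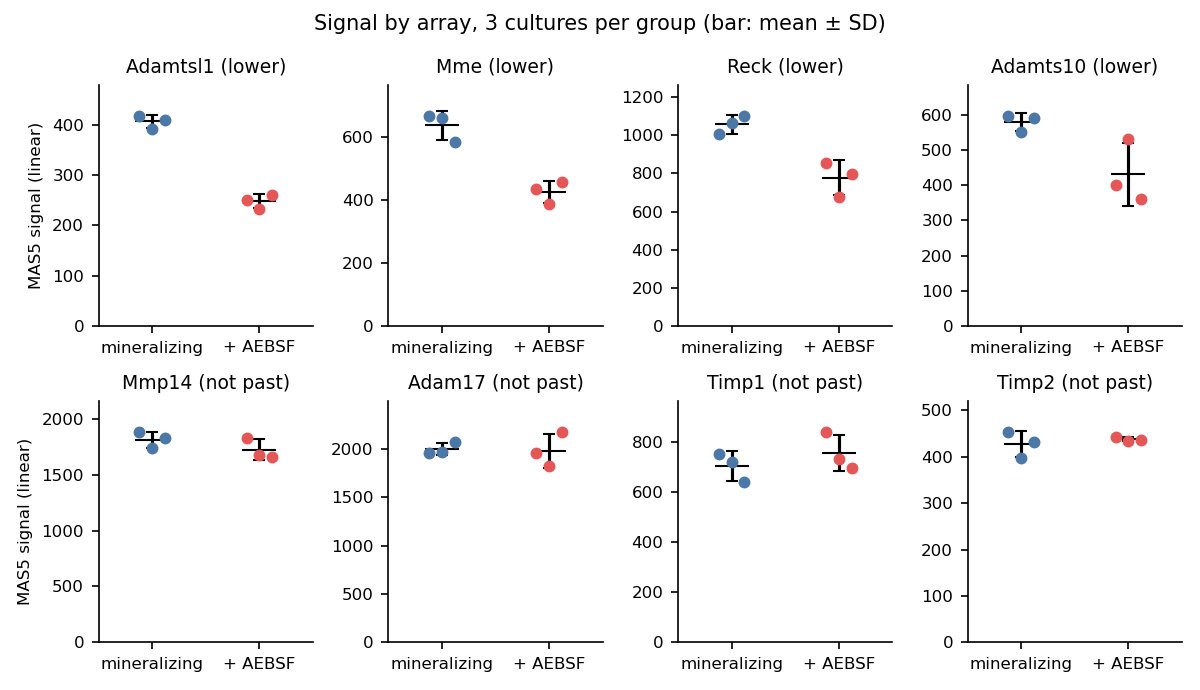
MAS5 signal in each of 3 mineralizing (blue) and 3 AEBSF cultures (red), with mean ± SD in black, for the 4 genes that fell and for Mmp14, Adam17, Timp1 and Timp2. In the upper row no AEBSF value reaches a mineralizing value; in the lower row the groups overlap.

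The promoters of these 4 genes are shown because they are the members called lower. Whether the 4 genes are regulated in common was not tested. The sequences are from RefSeq, assembly GRCr8, and cover the 250 bases before the start site on the strand of the gene. Capitals mark, on either strand, GGGCGG (the letters of a GC box, which Sp-family factors can bind) and the TATA box letters TATAAA. For Adamtsl1, which has 4 listed starts, the most upstream is given.
Reck, chr5:62898467-62898716, plus strand: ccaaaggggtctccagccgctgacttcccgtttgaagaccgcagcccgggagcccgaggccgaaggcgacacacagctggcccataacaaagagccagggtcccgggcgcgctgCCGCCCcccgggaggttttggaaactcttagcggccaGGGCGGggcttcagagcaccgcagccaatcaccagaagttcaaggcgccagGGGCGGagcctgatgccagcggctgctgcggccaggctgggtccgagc
Mme, chr2:149872247-149872496, plus strand: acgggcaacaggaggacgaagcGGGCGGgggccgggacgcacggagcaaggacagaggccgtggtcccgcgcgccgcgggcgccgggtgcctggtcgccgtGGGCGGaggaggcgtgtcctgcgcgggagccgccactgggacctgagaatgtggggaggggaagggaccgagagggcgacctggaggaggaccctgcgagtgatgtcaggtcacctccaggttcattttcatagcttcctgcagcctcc
Adamtsl1, chr5:105010266-105010515, plus strand: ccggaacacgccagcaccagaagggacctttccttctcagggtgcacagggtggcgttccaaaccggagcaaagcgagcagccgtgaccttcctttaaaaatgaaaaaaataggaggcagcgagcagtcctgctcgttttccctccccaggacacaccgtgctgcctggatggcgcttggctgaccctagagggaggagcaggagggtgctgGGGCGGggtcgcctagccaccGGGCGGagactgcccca
Adamts10, chr7:15033685-15033934, plus strand: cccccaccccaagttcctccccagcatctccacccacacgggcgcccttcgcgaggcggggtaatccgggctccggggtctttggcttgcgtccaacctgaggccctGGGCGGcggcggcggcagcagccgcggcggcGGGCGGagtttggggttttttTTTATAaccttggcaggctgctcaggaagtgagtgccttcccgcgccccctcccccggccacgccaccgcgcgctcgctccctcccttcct

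All 4 windows hold GGGCGG, 3 times in Reck and 2 times in each of the others, and their G + C content ran from 62.0% to 70.4%. The feature is not particular to them: 17 of the 22 other tested genes with a promoter in the table held GGGCGG too (77.3%), against 32.4% of 27457 genes in the whole table. TGANTCA, the letters of the AP-1 site, stood in 0 of the 4, in 2 of the 22 others (9.09%) and in 6.33% of all genes. Its absence is thus not particular to the 4 either. A match describes letters and is no evidence of binding, and none of the motifs searched contains another.

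Mmp13, the collagenase of osteoblasts, belongs to a run of 10 neighbouring MMP genes on chromosome 8 that holds 6 of the members. In this run only Mmp13 lay above the filter, while Mmp12, Mmp3, Mmp10, Mmp8 and Mmp7 lay below it. The promoters of Mmp13 and of the stromelysin gene Mmp3 (RefSeq, GRCr8) are given to show how the run differs from the genes above; capitals mark TGANTCA and TATAAA, and neither window holds GGGCGG.
Mmp13, chr8:12782579-12782828, plus strand: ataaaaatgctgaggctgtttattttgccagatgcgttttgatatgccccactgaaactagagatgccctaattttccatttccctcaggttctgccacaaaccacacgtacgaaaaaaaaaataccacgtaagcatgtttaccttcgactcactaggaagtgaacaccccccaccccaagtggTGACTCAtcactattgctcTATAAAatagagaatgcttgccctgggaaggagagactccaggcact
Mmp3, chr8:12925031-12925280, plus strand: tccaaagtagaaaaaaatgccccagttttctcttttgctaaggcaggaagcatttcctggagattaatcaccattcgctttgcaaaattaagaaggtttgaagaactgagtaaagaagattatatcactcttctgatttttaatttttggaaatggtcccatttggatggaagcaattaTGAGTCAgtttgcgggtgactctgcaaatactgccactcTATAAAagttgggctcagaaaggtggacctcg

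TGANTCA stood in 5 of these 6 clustered genes, all but Mmp8, and in 1 of the 32 other members with a promoter in the table, Adam19; over all genes the share was 6.33%. TATAAA stood in all 6, in 4 of the 32 others (12.5%) and in 13.1% of all genes. GGGCGG stood in 0 of the 6 and in 24 of the 32 others (75.0%). TGTGGT, the core letters of a RUNX site, stood in Mmp13 alone of the 38 members and in 14.1% of all genes. The median G + C content was 41.6% in the 6 and 66.2% in the others. Over all 38 members it was 67.6% in the 26 tested genes and 46.8% in the 12 below the filter, beside 52.0% over all genes. These are descriptions of 38 genes; the promoter table was not matched for Adam2, Adam3a, Adam6, Adam7, Adam9, Adam11, Adam18, Adam23, Adam32, Adam33, Adamts5, Adamts8, Adamts15, Adamts16, Adamts19, Bmp1, Mmp2, Mmp9, Mmp14, Mmp16, Mmp17 and Mmp19.

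**Figure D4:**
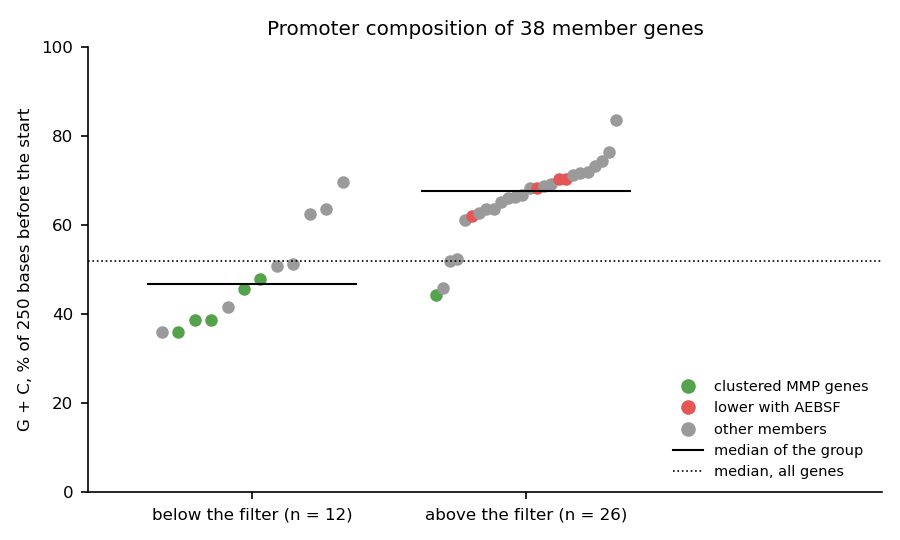
G + C content of the 250 bases before the start site in 38 member genes, those below (n = 12) and above (n = 26) the signal filter; each point is a gene, solid lines are group medians and the dotted line is the median of all genes, 52.0%. The 6 clustered MMP genes (green) lie between 36.0% and 48.0%, and the 4 genes that fell (red) lie between 62.0% and 70.4%.

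Among the MMPs, 0 of 8 tested genes passed in limma, beside 16.3% of all tested genes. At an unadjusted limma p of 0.05, 1 was higher and 0 were lower, where 15.3% and 16.6% of all tested genes were. Whether the 8 MMPs differ from these shares was not tested. Mmp14, the main membrane-bound collagenase of mesenchymal cells, had 1876, 1735 and 1823 in the mineralizing and 1829, 1676 and 1659 in the AEBSF cultures. The groups overlapped, and the difference was small and narrowly bounded (log2 difference -0.07, 95% interval -0.21 to 0.06, limma adjusted p = 0.477). A second Mmp14 probe set had 313, 218 and 250 against 332, 356 and 348, with every AEBSF value above the others (log2 difference 0.43, SE 0.14, limma adjusted p = 0.0625). That probe set passed without mineralizing culture 1 (adjusted p = 0.0312) and with the filter at the 60th percentile (adjusted p = 0.048). The 2 Mmp14 probe sets thus pointed in opposite directions.

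Mmp11, a stromelysin-type enzyme that furin activates inside the cell, had 255, 285 and 262 in the mineralizing and 389, 354 and 294 in the AEBSF cultures. All 3 AEBSF values were higher, but the third exceeded the nearest mineralizing value only slightly. The log2 difference was 0.36 (SE 0.13, limma adjusted p = 0.0814), and it passed without AEBSF culture 3 (adjusted p = 0.0342). Mmp17, a GPI-anchored MMP, was also higher in every AEBSF culture, with 130, 118 and 130 in the mineralizing and 137, 170 and 169 in the AEBSF group (log2 difference 0.33, SE 0.17, limma adjusted p = 0.226). Mmp15, another membrane-type MMP, had the largest difference among members that did not pass. Its signals of 81.4, 48.0 and 58.4 against 92.4, 112 and 69.8 overlapped and were near the filter (log2 difference 0.55, 95% interval -0.05 to 1.16, limma adjusted p = 0.215).

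Mmp13 had 124, 88.9 and 90.6 in the mineralizing and 90.9, 50.1 and 95.9 in the AEBSF cultures. Only the second AEBSF culture stood clearly lower, and the interval was wide (log2 difference -0.40, 95% interval -1.01 to 0.21, limma adjusted p = 0.388). Mmp16 and Mmp24, also membrane-type, had log2 differences of -0.04 (508 ± 51.6 to 492 ± 24) and -0.17 (398 ± 39.6 to 352 ± 18.3). Mmp23, whose protease has no hemopexin domain, had -0.02, with 126 ± 32.7 and 122 ± 18.0. None of these 3 passed in limma (adjusted p = 0.817, 0.324 and 0.967). A second tested Mmp23 probe set, about as bright, had 128 ± 17.5 and 93 ± 22.3, with overlap (log2 difference -0.48, limma adjusted p = 0.175). A dimmer Mmp23 probe set, not tested, had a log2 difference of -0.42 without overlap.

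Of the inhibitors, Reck fell as given above and the 2 tested TIMPs did not pass. Timp1 had 753, 720 and 638 in the mineralizing and 837, 733 and 696 in the AEBSF cultures, with overlap (log2 difference 0.10, 95% interval -0.10 to 0.30, limma adjusted p = 0.52). Timp2, which inhibits MMPs and also helps MMP14 to activate pro-MMP2, had 452, 396 and 432 against 442, 434 and 435 (log2 difference 0.04, 95% interval -0.17 to 0.24, limma adjusted p = 0.84). Its second probe set had a log2 difference of 0.05.

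The sheddases Adam10 and Adam17 were well above the filter and did not pass. Adam17, which releases tumour necrosis factor and ligands of the EGF receptor, had 1961, 1966 and 2071 against 1956, 1820 and 2168 with AEBSF (log2 difference -0.02, 95% interval -0.17 to 0.13, limma adjusted p = 0.907). Adam10, the protease that starts Notch cleavage, had 693, 580 and 614 against 553, 598 and 559 (log2 difference -0.14, 95% interval -0.34 to 0.06, limma adjusted p = 0.341). For both genes the groups overlapped. Adam9 had 155, 198 and 188 against 190, 155 and 164 (log2 difference -0.09, 95% interval -0.44 to 0.26), and Adam15 764 ± 49.4 against 757 ± 70.2.

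Among the 9 tested ADAMs, the lowest log2 differences were those of Adam8 and Adam19, and neither passed. Adam8, a protease best known from leukocytes and osteoclasts, had 173, 169 and 169 in the mineralizing and 113, 112 and 142 in the AEBSF cultures (log2 difference -0.49, SE 0.17, limma adjusted p = 0.076). Adam19 had 649, 611 and 599 against 482, 581 and 471 (log2 difference -0.28, SE 0.10, limma adjusted p = 0.0755). In both, all AEBSF values lay below the mineralizing ones. Adam19 passed without AEBSF culture 2 (adjusted p = 0.0252), and both passed after scaling to the hybridization controls (adjusted p = 0.0347 for Adam8 and 0.0279 for Adam19). A second Adam19 probe set had a like log2 difference of -0.30 (SE 0.23, limma adjusted p = 0.419). Of the markers of macrophages and osteoclasts, 5 of 6 measured lay below the filter. The other, Csf1r, had 124, 67.9 and 168 in the mineralizing and 87.2, 99.9 and 91.8 in the AEBSF cultures. Its groups overlapped and it did not pass (log2 difference -0.28, limma adjusted p = 0.575). Adam1a, Adam22 and Adam23, of which Adam22 and Adam23 lack protease activity, had log2 differences of 0.25, 0.10 and 0.26 (limma adjusted p = 0.323, 0.807 and 0.359).

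In the ADAMTS family, Adamts12 and Adamts5 were lower in every AEBSF culture without passing. Adamts12, which can degrade the cartilage protein COMP, had 154, 125 and 128 against 108, 93.3 and 84.1 (log2 difference -0.51, SE 0.19, limma adjusted p = 0.103). Adamts5, the main aggrecanase of mouse cartilage, had 88.0, 85.7 and 116 against 72.9, 69.2 and 69.3, values close to the filter (log2 difference -0.44, SE 0.22, limma adjusted p = 0.218). Adamts9, a secreted protease that cuts the proteoglycan versican, was bright and level, with 868, 967 and 867 against 914, 858 and 922 (log2 difference 0.00, 95% interval -0.16 to 0.16, limma adjusted p = 0.983). Adamts1, which also cuts versican, had 178, 144 and 152 against 201, 167 and 148 (log2 difference 0.11, limma adjusted p = 0.706). Adamts7 had -0.08, and the ADAMTS-like genes Adamtsl4 and Adamtsl5 had -0.09 and 0.06, so of the 3 tested ADAMTS-like genes only Adamtsl1 passed.

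Bmp1, which removes the C-propeptide of fibrillar procollagens so that fibrils can form, gave different pictures in its 2 probe sets. The brightest had 257, 177 and 189 against 211, 228 and 201 (log2 difference 0.06, 95% interval -0.29 to 0.41, limma adjusted p = 0.856). The other had 193, 187 and 151 against 155, 103 and 40.2, a wide spread in which AEBSF culture 3 stood lowest (log2 difference -1.03, SE 0.38, limma adjusted p = 0.0947). It passed without AEBSF culture 1 (adjusted p = 0.027) and after scaling to the hybridization controls (adjusted p = 0.0117). Ece1, which makes endothelin from its precursor, had 380, 292 and 331 against 298, 292 and 223 (log2 difference -0.31, 95% interval -0.62 to 0.01, limma adjusted p = 0.193), and its relative Ece2 had a log2 difference of 0.19 (limma adjusted p = 0.722).

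In all, 11 tested genes had 2 tested probe sets. The log2 differences had the same sign in 6 of them and opposite signs in 5 (Adam22, Adamts9, Adamts10, Bmp1 and Mmp14). The other probe set had -0.12 in Adam22 and 0.29 in Adamts9. The values lay furthest apart in Bmp1 (by 1.09), Mmp14 (0.50), Adamts10 (0.50) and Mmp23 (0.46). Mme, Reck and Adamtsl1 had 1 probe set each, so their falls could not be checked in this way. Probe sets of a gene can measure different transcript ends or variants; which transcripts these probe sets cover was not tested.

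**Figure D5:**
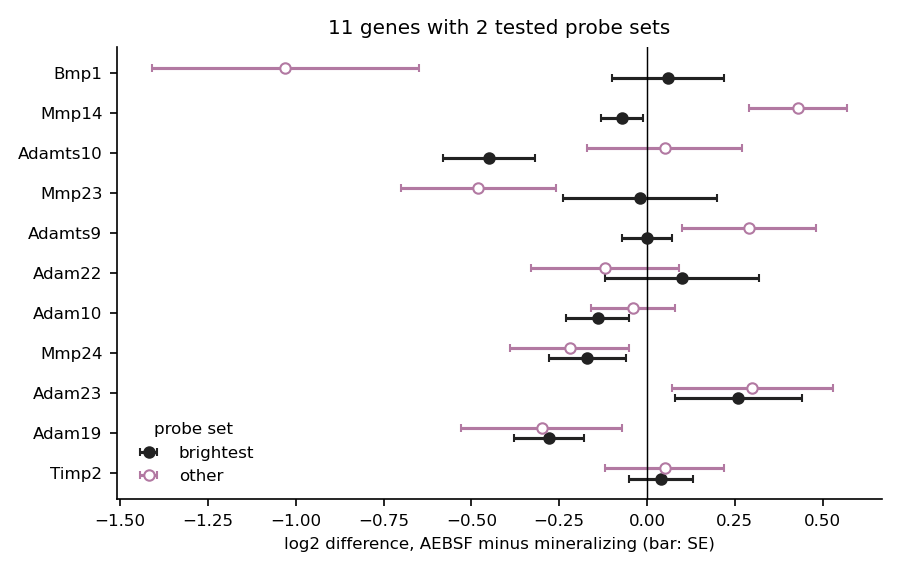
Log2 difference, AEBSF minus mineralizing, with SE from limma, for the brightest (filled) and the other tested probe set (open) of 11 genes, ordered by the gap between them. The gap is 1.09 in Bmp1 and 0.01 in Timp2.

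Genes that activate, restrain or serve as substrates of these enzymes were gathered in 7 lists, written with earlier results of these data known, so their counts are not independent evidence. Of 122 genes, 78 were tested, 24 fell (30.8%) and 3 rose (3.85%), beside 9.22% and 7.09% of all tested genes; the median log2 difference was -0.175. The falls numbered 13 and 14 without mineralizing culture 1 and 2, and 12 with a constant variance prior. The rises numbered 1 without mineralizing culture 1, and 0 when culture 2 or 3 of that group, or AEBSF culture 1 or 2, was left out.

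Of 10 tested regulators and activators of MMPs, 2 fell and 0 rose (0 higher at an unadjusted limma p of 0.05). Lrp1, an endocytic receptor that clears MMPs, ADAMTS enzymes and protease-inhibitor complexes from the medium, had 1476, 1252 and 1288 against 825, 646 and 700 with AEBSF. The groups were far apart, and the fall was 1.85-fold (log2 difference -0.89, SE 0.10, limma adjusted p = 0.000261); with the mean of its probe sets, a dim one included, it did not pass (adjusted p = 0.773). Serpine2, an inhibitor of plasminogen activators and thrombin, fell by 0.43 on the log2 scale (SE 0.05, limma adjusted p = 0.000424). Furin, the activator of MMP14 and several ADAMs, had 180 ± 23.8 and 222 ± 38.2 (limma adjusted p = 0.276). Among 10 tested partners of ADAMs, 0 passed in limma, beside 16.3% of all tested genes. They include the iRhoms Rhbdf1 and Rhbdf2 and the tetraspanins that carry Adam10. At an unadjusted limma p of 0.05, 0 of the 10 were higher and 1 was lower. After scaling to the hybridization controls 1 was lower. A dimmer probe set of Dlg1, which encodes a scaffold protein, passed as higher (log2 difference 0.25, limma adjusted p = 0.0372), while its brightest did not (0.11, adjusted p = 0.271).

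Among proteins shed by ADAMs, 6 of 18 tested fell and 2 rose. App, the amyloid precursor protein, had 6491, 6461 and 6799 against 4529, 5044 and 4516, with no overlap (log2 difference -0.49, SE 0.06, limma adjusted p = 0.000459). Tnfsf11, which encodes RANKL, the signal from osteoblasts to osteoclasts, had 214, 227 and 196 against 140, 135 and 131 (log2 difference -0.65, SE 0.15, limma adjusted p = 0.0145). It did not pass without mineralizing culture 1 or 2 (adjusted p = 0.0571 and 0.0683). Another Tnfsf11 probe set fell by 0.62 on the log2 scale. The EGF receptor ligand Tgfa and the syndecan Sdc4 fell by 0.52 and 0.43 on the log2 scale (limma adjusted p = 0.0264 and 0.0174). Tgfa did not pass when culture 1 or 2 of the mineralizing group (adjusted p = 0.0826 and 0.061) or of the AEBSF group (0.0569 and 0.0689) was left out. Sdc4 did not pass without mineralizing culture 3 (adjusted p = 0.067) or AEBSF culture 2 or 3 (0.0526 and 0.0513). The rises, Tnfrsf1a by 0.26 and Sdc1 by 0.21 on the log2 scale, did not pass after scaling to the hybridization controls; Sdc1 held in 1 of 6 fits that left out an array (without AEBSF culture 3), as did Tnfrsf1a. The falls in this list numbered 2 and 3 when mineralizing culture 1 or 2 was left out, and 3 without AEBSF culture 2.

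Substrates of Bmp1 and genes of procollagen processing gave 7 falls among 8 tested genes and 0 rises (0 also at an unadjusted limma p of 0.05), with Col1a2, Col11a1, Fn1 and Col1a1 falling by 1.13, 1.00, 0.98 and 0.67 on the log2 scale. The falls of Pcolce and Loxl2 were less firm (limma adjusted p = 0.0461 and 0.0472). Each was lost in 10 of the 17 settings, among them 5 of the 6 fits that left out an array. With median centring the falls in this list numbered 5. Of 4 tested genes of proteoglycans and hyaluronan that aggrecanases meet, 2 fell and 0 rose. Versican (Vcan), the substrate of Adamts1, Adamts5 and Adamts9, had 1146, 1151 and 1148 against 721, 761 and 783 (log2 difference -0.61, SE 0.07, limma adjusted p = 0.000293), and did not pass as the mean of its probe sets (adjusted p = 0.115). Hapln1, a link protein, fell by 0.49 on the log2 scale (limma adjusted p = 0.0309), a call that held without AEBSF culture 1 but not without any other array (adjusted p from 0.0559 to 0.115).

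A list of other metalloproteases, at the cell surface, in the space around it or inside the cell, gave 4 falls and 1 rise among 15 tested genes. Enpep, an aminopeptidase that converts angiotensin, had 597, 504 and 628 against 314, 192 and 313, a 2.15-fold fall with no overlap (log2 difference -1.11, SE 0.17, limma adjusted p = 0.0021), although a second probe set had 0.31 (limma adjusted p = 0.158). Phex, the osteoblast endopeptidase related to Mme and Ece1, fell by 0.73 on the log2 scale (SE 0.06), and the antigen-trimming aminopeptidase Erap1 by 0.33 (SE 0.07). Erap1 did not pass as the mean of its probe sets (log2 difference -0.12, limma adjusted p = 0.371) or with a constant variance prior (adjusted p = 0.0873). Under either of these settings 2 genes of the list fell. Thop1, a cytosolic oligopeptidase, rose by 0.35 (SE 0.08, limma adjusted p = 0.0171), and did not pass when mineralizing culture 2 or 3 (adjusted p = 0.0538 and 0.0608) or AEBSF culture 1 or 2 (0.058 and 0.0532) was left out, nor after scaling to the hybridization controls (0.243).

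Of 13 tested transcription factors known to act on MMP genes, 3 fell and 0 rose (1 higher at an unadjusted limma p of 0.05). Fos and Jun, which together form AP-1, had 494, 494 and 528 against 413, 419 and 400, and 985, 996 and 1015 against 835, 785 and 819, with no overlap in either (log2 difference -0.30 in both, limma adjusted p = 0.0434 and 0.0141). Ets2 fell by 0.22 on the log2 scale (limma adjusted p = 0.0419). When any of the 3 mineralizing cultures was left out, 0 of these 3 genes passed; without AEBSF culture 1 or 3 Fos and Ets2 did not pass, and without AEBSF culture 2 Fos did not. The falls numbered 1 with quantile normalization, median centring, no filter or the mean of probe sets, 0 with a constant variance prior and 5 after scaling to the hybridization controls. As the mean of its probe sets Jun had a log2 difference of -0.09 (limma adjusted p = 0.607), and its other tested probe sets had -0.17 and 0.20.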

How the data were processed

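RNA of 6 cultures was measured on 1 array each; groups and replicate numbers come from the sample titles, and the design text names triplicate cultures. The deposited values are intensities; the submitters' processing notes name MAS5 and GCOS, without versions. Scaling target and detection calls: not given in the sources used here. Names come from the platform annotation, updated through Entrez identifiers with the RefSeq annotation of assembly GRCr8; 436 probe sets with several symbols were not used. The log2 signal was tested with no added constant in R 4.3.3 and limma 3.58.1 (lmFit, eBayes with an intensity trend in the prior), AEBSF minus mineralizing, in 18625 non-control probe sets with a mean above the 40th percentile, with Benjamini-Hochberg adjustment over all of them and a threshold of 0.05. Intervals are 95% limma intervals, unadjusted. The fit was tested on simulated data. The number of arrays, 3 per group, limits the precision.

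The members and lists were chosen with earlier results of these data known. Values in every array are given, by rule, for all called members, those of 17 genes fixed by name that were tested, and the 5 largest differences among tested members not past the threshold; other tested members are given by log2 difference or means, those below the filter by name and range, and of each list up to 4 called genes. Array values of Mmp2, Timp3, Ece2, Mmp11, Mmp17, Adam19, Adamts9 and Csf1r were added after they were seen. So were values of Furin, Dlg1, other Mmp23 probe sets and the 2 shed proteins that rose, and the calls of Pcolce and Loxl2. Promoters of 38 of 60 genes were found in RefSeq (GRCr8); motifs were searched on both strands in the 250 bases before the most upstream listed start. The 17 alternative settings are other normalizations and scalings, constants of 16 and 64, other filters and priors, averaging all probe sets of a gene, the replicate number as a block, and each array left out in turn. The numbers do not pair the cultures: deviations of same-numbered cultures from their group means had correlations of 0.011, -0.119 and -0.036.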

Additional observations from a re-analysis of the deposited data

How the results depend on the processing

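Under all 17 settings Adamtsl1 and Mme stayed past the threshold and no tested member changed sign and call together; Reck was lost in 1 and Adamts10 in 9 settings. Of 29 members that did not pass, 3 (Adam8, Adam19 and Mmp11) passed in at least 1 setting, and 12 turned sign in at least 1 without passing. With a constant variance prior, 2 member genes and 2 member probe sets fell, 12 list genes fell and 0 rose, and 285 probe sets rose and 600 fell in all, against 1115 and 1380 as given. Scaling to hybridization controls moved the median log2 difference of tested probe sets from 0.012 to -0.135; 119 probe sets then rose and 2457 fell, 7 member probe sets and 6 member genes fell, and 0 list genes rose. With no filter 710 probe sets and 1 list gene rose. With the filter at the 60th percentile 1 member probe set rose. Leaving out 1 array gave 3 to 5 member genes lower and 0 to 1 higher, 3 to 5 member probe sets lower and 0 to 1 higher, 13 to 21 list genes lower and 0 to 3 higher, and 489 to 997 probe sets higher and 714 to 1260 lower in all. With the replicate block 3 member genes fell, Adamts10 being lost (limma adjusted p = 0.0546), and 764 probe sets rose and 1038 fell; the second Bmp1 probe set passed (adjusted p = 0.0451), and of the transcription factors 1 fell, with Fos and Ets2 lost (0.0839 and 0.0857), and 1 rose. Of 27 called list genes 8 kept their call in every setting and 15 lost it without at least 1 array; Fgfr2, a list gene lower as given, had a log2 difference of 0.20 as the mean of its probe sets. By brightest probe set, the intervals of Ece2, Mmp13 and Mmp15, whose signals lie near the filter, are the widest of the tested members.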
